A study of Mus musculus with 11 samples.

Results

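Nuclear genes of oxidative phosphorylation (OXPHOS) were followed across the cells of aged mouse lung. Members were the rows of the deposited gene list whose symbols start with Ndufa, Ndufb, Ndufc, Ndufs or Ndufv (complex I, leaving out the Ndufaf assembly factors), Uqcr (complex III), Cox4 to Cox8 (complex IV) or Atp5 (complex V). The rule found 81 of 31053 rows. By name, 38 belong to complex I, 8 to complex III, 18 to complex IV and 17 to complex V. Each had at least 1 unique molecular identifier (UMI, a tag that marks a captured RNA molecule), and 78 passed the filter on low counts over all kept barcodes. The other 3 were Cox7b2 with 21 UMIs, Cox8c with 3 UMIs and a second row of Atp5o (ENSMUSG00000116933) with 1 UMI.

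Dissociated whole lung was profiled by droplet 3′ single-cell RNA-seq in 11 libraries. By the genotype label these were wild type +/+ (WT, 1 library), p21 heterozygotes +/- (p21Het, 3 libraries), p21 mTert +/mTert (p21mTert, 5 libraries) and p21 mTertCD +/mTertCD (p21mTertCD, 2 libraries). The gene for p21 is Cdkn1a, and mTert is mouse telomerase reverse transcriptase. A library is written as its group and number. WT_1, p21Het_1 and p21mTert_1 form a first deposit and the other 8 libraries a later one. All titles give 18 months, while the age label gives 19 months for p21Het_1 and 20 months for p21mTert_1. Age and deposit cannot be told apart in the tests, which leave out WT. Nothing in the labels says that libraries of a group came from separate animals, so p-values measure the spread between these libraries, which may be technical.

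Barcodes with 1000 to 30000 UMIs and at most 14% mitochondrially encoded UMIs were kept, which left 69267 of 81983 barcodes with 36248337 to 67722156 UMIs per library. The first deposit had 6.20% to 6.41% of its kept UMIs on mitochondrially encoded genes, and the later deposit 3.53% to 4.76%. Tert stood at 0.54 to 0.84 UMIs per 1000000 in p21Het, 1.13 in WT, 2.00 to 3.28 in p21mTert and 1.90 to 2.59 in p21mTertCD. The p21mTert and p21mTertCD libraries did not overlap the p21Het or WT ones.

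The respiratory chain moves electrons from NADH through complex I, and onward through complexes III and IV to oxygen, while pumping protons across the inner mitochondrial membrane. Complex V, the ATP synthase, uses the proton gradient to make ATP. A small core of subunits is encoded by mitochondrial DNA and the rest by nuclear genes. Several subunits, most of them in complex IV, come in a widely used form and a tissue-restricted form.

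Promoter windows, taken from RefSeq (GRCm38.p6), were matched for 66 members with 71 start sites, and Cox6a2, Cox4i1, Cox4i2 and Ndufa4l2 were not among them. For 3 pairs of complex IV isoforms, the 150 bases before the RefSeq start are shown 5′ to 3′ because the forms of a pair differed widely in their levels across lineages. Gene positions elsewhere are from GENCODE M21, by which the last 37 bases shown for Cox6b1, 27 for Cox7a1 and 25 for Cox7a2 lie inside the gene. Capitals mark CG dinucleotides.
Cox6b1 (widely used; chr7:30626115-30626264, minus strand): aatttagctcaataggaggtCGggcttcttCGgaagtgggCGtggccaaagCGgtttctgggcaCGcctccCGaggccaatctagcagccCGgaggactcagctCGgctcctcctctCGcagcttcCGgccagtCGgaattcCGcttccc
Cox6b2 (restricted; chr7:4753095-4753244, minus strand): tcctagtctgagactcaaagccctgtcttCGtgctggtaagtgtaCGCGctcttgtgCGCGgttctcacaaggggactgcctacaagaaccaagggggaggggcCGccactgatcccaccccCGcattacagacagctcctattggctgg
Cox7a2 (widely used; chr9:79759854-79760003, minus strand): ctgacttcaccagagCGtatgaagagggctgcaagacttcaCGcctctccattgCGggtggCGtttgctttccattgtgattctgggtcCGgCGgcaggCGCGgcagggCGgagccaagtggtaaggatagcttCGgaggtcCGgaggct
Cox7a1 (restricted; chr7:30184021-30184170, plus strand): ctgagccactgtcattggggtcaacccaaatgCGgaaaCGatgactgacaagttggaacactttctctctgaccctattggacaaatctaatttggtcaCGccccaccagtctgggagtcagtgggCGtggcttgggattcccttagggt
Cox8a (widely used; chr19:7217617-7217766, minus strand): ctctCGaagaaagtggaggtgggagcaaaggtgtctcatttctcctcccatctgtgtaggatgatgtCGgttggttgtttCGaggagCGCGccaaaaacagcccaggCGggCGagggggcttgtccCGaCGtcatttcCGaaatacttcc
Cox8b (restricted; chr7:140900447-140900596, minus strand): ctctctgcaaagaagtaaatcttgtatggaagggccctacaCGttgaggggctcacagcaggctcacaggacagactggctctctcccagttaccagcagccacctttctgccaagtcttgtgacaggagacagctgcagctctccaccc

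The widely used forms held 12 (Cox6b1), 11 (Cox7a2) and 10 (Cox8a) CG dinucleotides in these windows. The restricted forms held 7 (Cox6b2), 4 (Cox7a1) and 1 (Cox8b). The median was 11 over the 71 member windows and 4 over the 32851 windows of the whole table. The letters CGCATGCG, a core bound by NRF1, a regulator of respiratory genes, stood in 9 of 71 member windows of 300 bases (12.7%) against 1.87% of all windows. The letters CCGGAAG, on either strand, a core of ETS factors such as GABP, stood in 14 (19.7%) against 8.86%. The letters AAGATGG, on either strand, a core of YY1, stood in 11 (15.5%) against 6.34%. Each motif was counted on its own, whether or not it overlapped another, and a match describes the letters only. A start site of Atp5j, a subunit of the ATP synthase stalk, had all 3 motifs within 150 bases, shown here in capitals. By GENCODE M21 all 150 bases lie inside the gene.
Atp5j (chr16:84834977-84835126, minus strand): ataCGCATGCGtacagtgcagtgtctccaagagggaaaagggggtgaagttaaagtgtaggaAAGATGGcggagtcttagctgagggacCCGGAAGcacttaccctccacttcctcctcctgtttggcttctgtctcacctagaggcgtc

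Levels are UMIs of a gene per 1000000 UMIs of a library or of a gate of cells. A 3′ UMI count does not grow with transcript length, so levels were compared between genes without a length correction. Whether reads of each gene are mapped and counted equally well was not tested. Over all kept barcodes the 81 genes together took 12747 to 15168 UMIs per 1000000. Complex I genes held 4157 to 4873 of these, complex III 1309 to 1594, complex IV 3516 to 4321 and complex V 3694 to 4481.

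Ndufa4 was the highest gene named for complex I, at 272 to 352 UMIs per 1000000 with a median of 299.9 over the 11 libraries. Its product is now placed in complex IV. Its relative Ndufa4l2, known to be induced by low oxygen, was the lowest at 0.28 to 1.56. In complex III, Uqcrh, the hinge subunit, stood at 396 to 521 (median 439) and Uqcrc1, a core subunit, at 58.6 to 79.9 (median 70.9). In complex IV, Cox4i1, the widely used form of subunit IV, stood at 533 to 722 (median 607) and Cox8b at 0.31 to 2.47 (median 1.19). In complex V, Atp5e stood at 488 to 605 (median 555) and Atp5s at 4.05 to 6.80 (median 5.66). Within a complex the levels of genes thus differed by far more than those of libraries. Atp5g1, Atp5g2 and Atp5g3, which encode the same subunit of the rotating c-ring, had medians of 173, 299.5 and 156.

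Barcodes were assigned to lineages with 20 lists of 10 marker genes, none of which is a member. A barcode took the lineage with the most markers detected where at least 3 were detected and the next lineage trailed by at least 2. This placed 62087 barcodes. The 19 lineages with at least 20 barcodes in 3 or more libraries were compared. As a check, 4 further known genes were read for each of 10 lineages, a set chosen after seeing the data. All 4 were highest in their own gate for 9 lineages, and 3 of 4 for T cells, where Ms4a4b was higher in NK cells.

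Ciliated cells had the highest summed OXPHOS level, at 19820 ± 1478 UMIs per 1000000 (SD, n = 11 libraries). Mural cells (pericytes and smooth muscle) followed at 19726 ± 1724 (n = 7), classical monocytes at 18939 ± 1327 (n = 11), plasmacytoid dendritic cells (pDC) at 18121 ± 665 (n = 5) and NK cells at 17315 ± 679 (n = 11). Neighbours among the first 4 did not differ beyond the pooled SD of the libraries, while pDC and NK cells did, with overlapping ranges. T cells stood at 15296 ± 1338. Then came a run of lineages in which neighbours did not differ beyond the pooled SD: conventional dendritic cells (14665), alveolar macrophages (14547), alveolar type 2 (AT2) cells (13816), interstitial macrophages (13600), alveolar type 1 (AT1) cells (13205), fibroblasts (13176), endothelial cells (12777), B cells (12570) and patrolling monocytes (12518). Plasma cells (10112 ± 1463), basophils and mast cells (9165 ± 1044) and neutrophils (7449 ± 1132) were lower. Erythroid barcodes were lowest at 2175 ± 1053 (n = 9), and theirs was the only range that did not overlap that of its neighbour. These are shares of the RNA of a gate, so less OXPHOS RNA and more of other RNA cannot be told apart. The order holds for kept barcodes: over all deposited barcodes the ciliated level was lower by more than its SD.

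**Figure D1:**
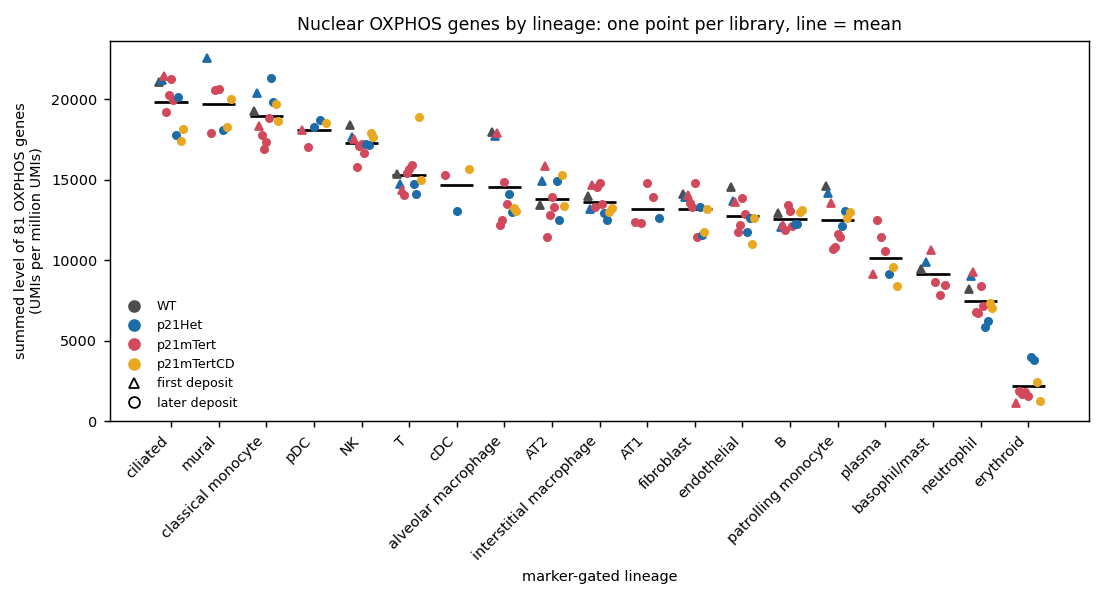
Summed level of the 81 OXPHOS genes (vertical axis, UMIs per 1000000 UMIs, from 0) in each marker-gated lineage (horizontal axis). Each point is 1 library, colour gives the genotype, triangles are the first deposit and circles the later one, and lines are means. Means fall from 19820 in ciliated cells to 2175 in erythroid barcodes, and the 3 triangles of alveolar macrophages lie above the 8 circles.

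Among 80 members with a level in these gates, 22 were highest by mean level in mural cells, 18 in ciliated cells, 15 in classical monocytes and 6 in alveolar macrophages. Some were near ties, such as Cox6c at 891.5 in mural and 891.1 in ciliated cells. No share of all genes stands beside the counts of highest members, and mural sums rested on 21 to 31 barcodes per library. Each lineage was tested against the mean of the other lineages with the library as a block (edgeR's quasi-likelihood test over 15135 genes, called at a Benjamini-Hochberg adjusted p under 0.05). In classical monocytes 66 of 78 members were higher and 2 lower, where 30.4% of all genes were called higher. Plasma cells had 68 higher and 2 lower (24.4% of genes higher), although their summed level was among the low ones. In AT2 cells 54 were higher and 5 lower, where 43.0% of genes were called higher. Mural cells had 39 higher and 8 lower (27.2% of genes higher), and ciliated cells 42 higher and 16 lower (43.6% of genes higher), a share near that of all genes. In neutrophils 55 members were lower and 14 higher (29.6% of genes lower), and in basophils and mast cells 58 were lower and 3 higher (17.6% of genes lower).

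The direction depended on the scaling in 8 of 19 lineages. Endothelial cells had 57 members lower and 8 higher (19.3% of genes lower), but 15 lower and 38 higher when scaled by library totals alone, where 64.9% of genes were higher. Fibroblasts had 46 lower and 10 higher (21.2% of genes lower), but 12 lower and 37 higher with that scaling (57.3% of genes higher). AT1 cells, alveolar macrophages, interstitial macrophages and B cells also turned from more members lower to more members higher. With library totals alone 41 members were higher in AT1 cells (36.4% of genes higher), 44 in alveolar macrophages (49.2%), 32 in interstitial macrophages (38.9%) and 18, against 17 lower, in B cells (42.7% of genes higher and 15.1% lower). Plasma cells and erythroid barcodes turned the opposite way. Plasma cells went to 14 higher and 46 lower (46.9% of genes lower). Erythroid barcodes went from 35 higher and 3 lower (26.0% of genes higher) to 4 higher and 72 lower (57.8% of genes lower). The larger side stayed in the other 6 lineages of the paragraph above. With library totals alone 68 members were higher in classical monocytes (35.0% of genes), 41 in AT2 cells (37.8%), 68 in mural cells (39.8%) and 66 in ciliated cells (57.0%). In neutrophils 68 were lower (37.8% of genes) and in basophils and mast cells 57 (16.5%). Other settings turned 3 lineages. Interstitial macrophages had 12 higher and 19 lower, where 4640 of 15135 genes were higher and 2396 lower. These became 18 and 8 with the later deposit alone (31.6% of genes higher and 12.7% lower), 19 and 14 with mitochondrially encoded genes left out (32.9% and 13.6%), and 15 and 15 with no filter on low counts (20.7% and 8.27%). Erythroid barcodes had 13 higher and 30 lower with a gate of 4 markers and a lead of 4, chosen after seeing the data (16.1% of genes lower). Mural cells and conventional dendritic cells had too few barcodes to be compared with that gate. In pDC 11 higher and 6 lower (2797 and 1887 of 15135 genes) became 5 and 11 with no filter on low counts (7.88% of genes lower). In alveolar macrophages 19 higher and 33 lower (5576 and 3012 of 15135 genes) became 25 and 25 with mitochondrially encoded genes left out (40.3% of genes higher and 17.4% lower).

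The restricted forms were highest in few lineages, and some were found at low levels in many. Several lineages held 0 UMIs of such a form, so folds are given over the next lineage and, as lower bounds, over a floor of 3 UMIs in all libraries of a lineage at 0. Cox6a2, the heart and muscle form of a complex IV subunit (chr7:128205435-128206387, minus strand, GENCODE M21 on GRCm38), stood in pDC at 684 and 912 UMIs per 1000000 in p21mTert_1 and p21mTert_2. It stood there at 1118, 1426 and 1397 in p21Het_2, p21Het_3 and p21mTertCD_2. Each of these 5 values came from 20 to 40 barcodes, and all lay above the AT2 values of 94.2 to 167 over 11 libraries. B cells, with 98 to 2278 barcodes per library, held 0 to 2.12. The pDC mean of 1107 ± 317 was 7.92-fold the AT2 mean and at least 385-fold higher than in basophils and mast cells, which held 0 UMIs. Cox6a2 made up 80.1% ± 4.1 of the UMIs of Cox6a1 and Cox6a2 together in pDC (n = 5), 38.8% ± 5.0 in AT2 cells (n = 11) and 0.44% ± 0.41 in T cells (n = 11). The gene overlaps Itgad on the other strand, which stood at 4.56 in pDC and 0.059 in AT2 cells.

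Mural cells held the restricted forms of 2 further subunits. Cox4i2, the form of subunit IV known from lung and from low oxygen (chr2:152754173-152765037, plus strand), stood there at 219 in p21Het_1, 136 in p21Het_2, 109, 180 and 176 in p21mTert_2, p21mTert_4 and p21mTert_5, and 40.3 and 368 in p21mTertCD_1 and p21mTertCD_2. The p21mTertCD libraries held both the lowest value, from 9 UMIs, and the highest, from 80 UMIs. Its mean of 175 ± 103 was 26.5-fold that of AT2 cells, the next lineage, and at least 96.8-fold higher than in pDC, which held 0 UMIs. Cox4i2 made up 16.6% ± 7.7 of the pair with Cox4i1 (n = 7), against 1.19% ± 0.27 in AT2 cells. Ndufa4l2 (chr10:127514967-127517154, plus strand) stood in mural cells at 82.3 to 151 over 7 libraries, with a mean of 113 ± 27. It made up 22.1% ± 2.8 of the pair with Ndufa4. Fibroblasts were next at a mean of 7.67 and at most 19.1, so mural cells stood 14.8-fold higher and the ranges did not overlap. Erythroid barcodes held 0 UMIs, and mural cells stood at least 444-fold higher than these. Mural sums rested on 21 to 31 barcodes per library. The gene overlaps Shmt2 on the other strand, which stood at 9.001 in mural cells and 9.64 in fibroblasts.

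Fibroblasts held Cox6b2, known as the testis form of its subunit (chr7:4751792-4753094, minus strand), at 79.1 to 150.3 over 11 libraries with a mean of 103 ± 21. Alveolar macrophages were next at 26.6 to 56.7, below all fibroblast values. Its log2 difference from the mean of the other lineages was 4.24 (SE 0.12, adjusted p = 4.7e-92, edgeR). The same fit gave 4.40 (SE 0.20) in erythroid barcodes, so it did not rank fibroblasts first. The share of Cox6b2 in the pair with Cox6b1 was 29.4% ± 4.7 in fibroblasts, 7.82% ± 2.0 in alveolar macrophages and 6.88% ± 0.53 in AT2 cells. Cox8b, a heart and muscle form (chr7:140898945-140900446, minus strand), stood at 10.3 to 41.96 in fibroblasts, from 8 to 91 UMIs, and made up 4.43% ± 1.9 of the pair with Cox8a. Its mean of 23.6 ± 10.9 was 6.31-fold that of erythroid barcodes, the next lineage, and at least 49.4-fold higher than in NK cells, which held 0 UMIs. The erythroid mean of 3.74 rested on 1 p21Het library at 27.6, inside the fibroblast range, and the median was 0. Endothelial cells stood at 0.45 to 6.51, from 76 UMIs in all, and T cells at a mean of 0.095, from 11 UMIs. Cox7a1, also a heart and muscle form (chr7:30184144-30186078, plus strand), stood at 11.7 to 20.6 in AT1 cells of 5 libraries, from only 2 to 9 UMIs each. It made up 6.05% ± 1.6 of the pair with Cox7a2. The erythroid barcodes of 1 p21Het library held more Cox7a1, at 56.1, with a median of 0 over the 9 erythroid libraries. By edgeR the log2 difference of Cox7a1 was 4.88 in erythroid barcodes and 2.92 in AT1 cells. That of Cox8b was 7.10 in erythroid barcodes and 6.78 in fibroblasts. Alveolar macrophages stood at 4.00 to 11.1, from 303 UMIs in all, and B cells at 0.68 to 1.47, from 68 UMIs. How much of these low levels is free RNA was not tested. Cox7b2 reached at most 4 UMIs in the fibroblasts of a library.

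**Figure D2:**
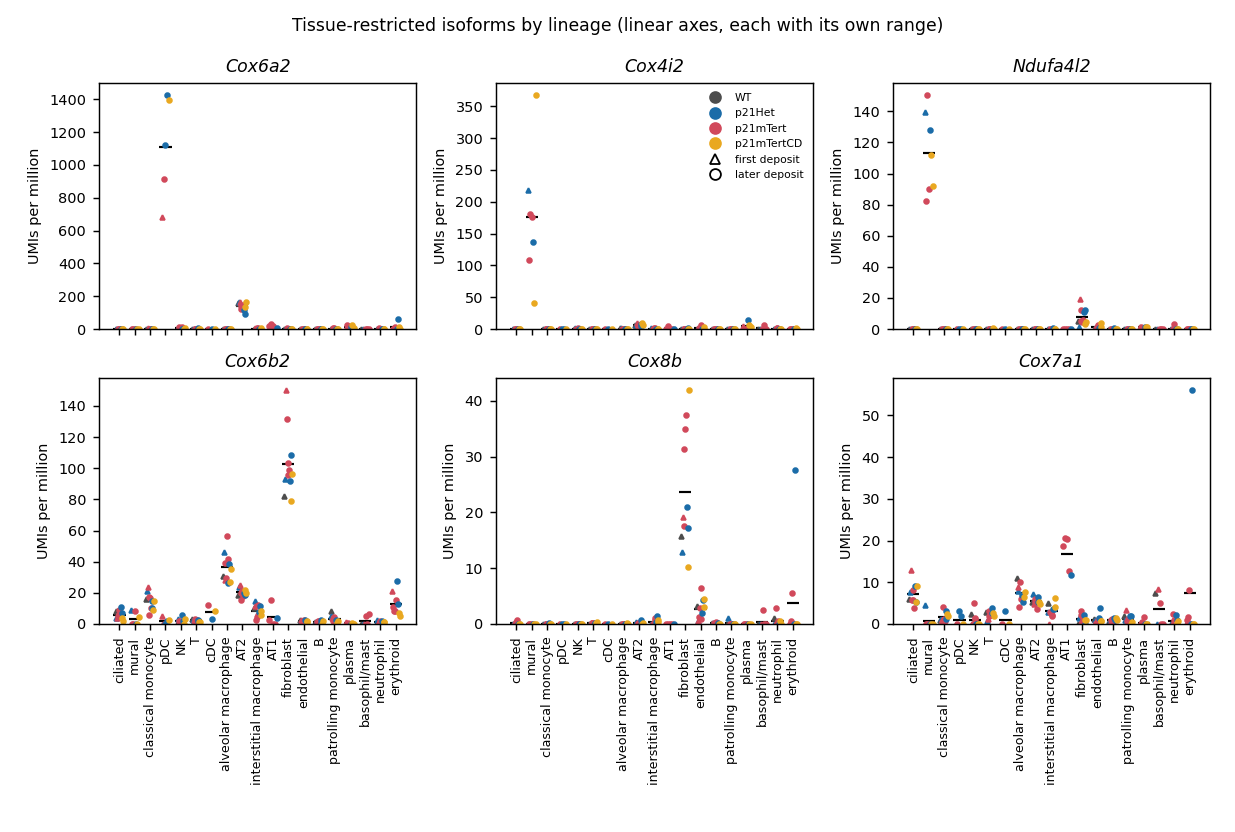
Level of 6 restricted forms (vertical axes, UMIs per 1000000 UMIs, linear and each with its own range) in each lineage (horizontal axes). Each point is 1 library, colour gives the genotype, triangles are the first deposit, circles the later one, and lines are means. Cox6a2 stands in pDC and AT2 cells, Cox4i2 and Ndufa4l2 in mural cells, and Cox6b2 and Cox8b in fibroblasts.

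The widely used forms were spread over most lineages. Cox4i1 was highest in classical monocytes at 1017 ± 87 (n = 11) and Cox8a in NK cells at 907 ± 60 (n = 11). Cox7a2l, a factor of respiratory supercomplexes, was highest in classical monocytes at 461 ± 55, followed by conventional dendritic cells at 441. Ndufa4 was highest in ciliated cells at 602 ± 80. Of the c-ring genes, Atp5g3 was highest in alveolar macrophages at 299 ± 62, while Atp5g2 was highest in pDC at 443 ± 39. Atp5g1 stood at 234 ± 36 in pDC, 232 ± 18 in conventional dendritic cells and 229 ± 29 in mural cells, which did not differ beyond their spread. Ciliated cells also held the highest Ndufc2, a membrane arm subunit, at 521 ± 67, with AT2 cells next at 247, and its log2 difference was 2.03 (SE 0.07, adjusted p = 3.2e-62, edgeR). Ndufab1, which is also the mitochondrial acyl carrier protein, stood there at 309 ± 40 with mural cells next at 156, and its log2 difference was 1.65 (SE 0.06, adjusted p = 3.5e-58, edgeR).

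The genotypes were compared over all kept barcodes with a term for the deposit. The summed level was 13860 ± 928 in p21Het (n = 3), 13699 ± 874 in p21mTert (n = 5) and 14555 ± 866 in p21mTertCD (n = 2), against 14881 in WT, and these ranges overlapped. By edgeR, 0 of 78 members were called in p21mTert against p21Het, where 0.00571% of 17503 genes were called, and 2 had an unadjusted p under 0.05. Against p21mTertCD 0 members were called in p21mTert (0.00571% of genes) with 5 at an unadjusted p under 0.05, and DESeq2 called 1, Ndufa6, as lower (1.19% of genes lower). In p21mTertCD against p21Het 0 were called (0.0514% of genes) with 1 at an unadjusted p under 0.05, and DESeq2 called 0 there and in p21mTert against p21Het. The median log2 difference of the members was -0.05, -0.15 and 0.07 in these 3 comparisons, which share libraries, and the median SE of a member was 0.09 to 0.12.

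The members with the smallest p were as follows. Atp5s, a coupling factor of complex V, stood at 4.05 to 6.51 in p21Het and 5.58 to 6.80 in p21mTert, with a log2 difference of 0.35 (SE 0.12, adjusted p = 0.65, edgeR). Cox7a1 stood at 3.04 to 5.08 in p21Het and 2.29 to 3.57 in p21mTert, with a log2 difference of -0.62 (SE 0.27). Atp5f1, a stalk subunit, had a log2 difference of -0.19 (SE 0.09). The groups overlapped for Atp5s and Cox7a1. Against p21mTertCD, p21mTert had log2 differences of -0.25 for Atp5h (SE 0.10), -0.21 for Ndufa10 (SE 0.09) and -0.19 for Ndufa6 (SE 0.08), with adjusted p of 0.28 to 0.29 (edgeR). In p21mTertCD against p21Het, Ndufs4 stood 0.23 higher (SE 0.09, adjusted p = 0.73, edgeR), at 75.7 and 79.4 against 62.4 to 69.3. The log2 difference was 0.19 for Ndufa10 (SE 0.10) and -0.34 for Cox6a2 (SE 0.18).

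**Figure D3:**
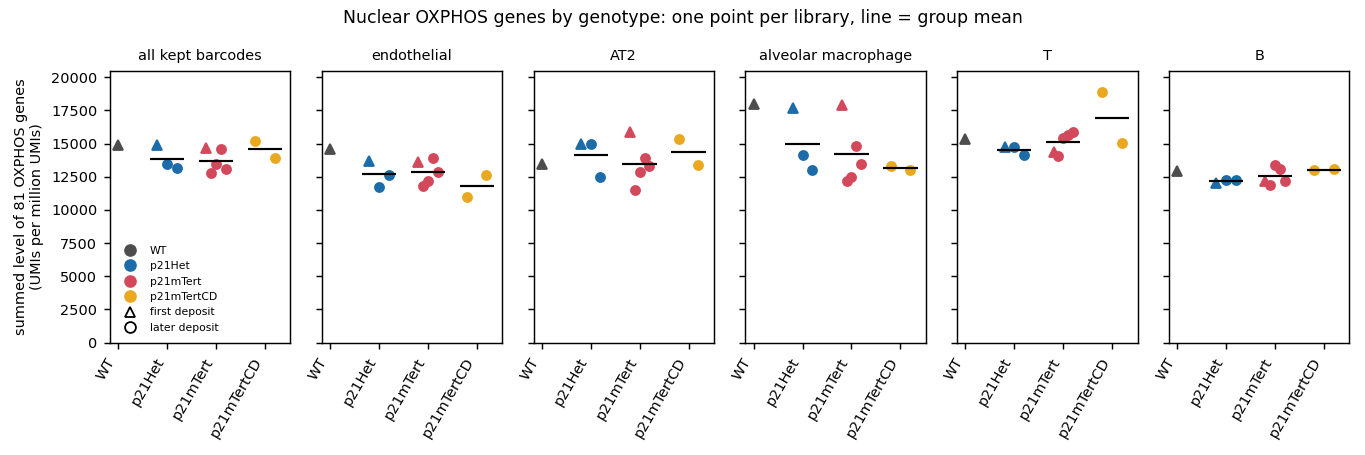
Summed level of the 81 OXPHOS genes (vertical axes, UMIs per 1000000 UMIs, from 0) by genotype (horizontal axes) over all kept barcodes and in 5 gates. Each point is 1 library, triangles are the first deposit, circles the later one, and lines are group means. Genotypes overlap over all kept barcodes, and p21mTertCD_1 stands highest in T cells at 18894.

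Within gates edgeR also called 0 members between genotypes. In endothelial cells (73 members tested) the share of genes called was 0.0176% in p21mTert against p21Het, 0.0264% in p21mTert against p21mTertCD and 0.0% in p21mTertCD against p21Het, with 2, 6 and 1 members at an unadjusted p under 0.05. In AT2 cells (76 tested) these shares were 0.0249%, 0.058% and 0.0%, with 0, 1 and 1 members. In alveolar macrophages (74 tested) they were 0.0% in all 3 comparisons, with 1, 2 and 0 members. In T cells (75 tested) they were 0.0245%, 0.00817% and 0.0572%, with 1, 18 and 25 members. In B cells (74 tested) they were 0.0597%, 0.00853% and 0.0%, with 0 members in each. All these shares, like those over all kept barcodes, are at the adjusted threshold. No share of genes stands beside the unadjusted counts, so the shares cannot be set against them. DESeq2 called 0 members in these 15 comparisons except for Cox8a in T cells, which it gave as higher in p21mTertCD than in p21Het (log2 difference 0.44, adjusted p = 0.018, DESeq2), where it gave 0.906% of genes as higher.

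In T cells 1 library stood apart. The summed level was 18894 in p21mTertCD_1 and 14084 to 15891 in the other 10 libraries, and p21mTertCD_1 was highest of the 11 in 53 of 75 members (70.7%), where it was highest in 19.3% of 12246 genes. Ndufb7 stood at 322 against 160 to 199, Cox5b at 347 against 187 to 246, Cox6b1 at 447 against 258 to 330 and Atp5k at 302 against 148 to 223. These genes, and the T cell genes that follow, were chosen after their values were seen. The T gate of that library also held more Pdcd1 (145 against 23.5 to 60.01), an inhibitory receptor, Gzmk (210 against 19.3 to 106), a granzyme, and Mki67 (99.5 against 20.7 to 85.1), a proliferation marker. Their part in the result was not tested. Without p21mTertCD_1 the median log2 difference of p21mTertCD from p21Het fell to 0.10 from 0.23. Without p21mTertCD_2, leaving p21mTertCD_1 alone in its group and assumed to vary like the others, it was 0.32 and edgeR called 32 of 75 members as higher, where 6.25% of genes were called higher.

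Between deposits, the median of the OXPHOS genes moved most in alveolar macrophages, of the 5 gates and all kept barcodes. The summed level was 17999 in WT_1, 17717 in p21Het_1 and 17902 in p21mTert_1, and 12196 to 14845 in the 8 later libraries, so the deposits did not overlap. In 56 of 74 tested members (75.7%) the 3 first libraries lay above the 8 later ones, against 9.3% of 10472 genes, and 0 members lay wholly below. WT_1, whose age label is 18 months as in the later libraries, stood with the other 2 first libraries. It is 1 library of a genotype that the later deposit lacks, and the part of age was not tested. The fit, which leaves out WT, gave a median log2 difference of 0.28 over the members and -0.02 over all genes, with 68 of 74 members positive. By edgeR 0 members were called (0.0573% of genes), with 37 at an unadjusted p under 0.05 and a smallest adjusted p of 0.078. That share is at the adjusted threshold, and no share of genes stands beside the unadjusted counts here or in the other deposit fits. DESeq2 called 14 of 74 as higher, where it called 1.01% of genes higher. Without p21Het_2 edgeR called 12 of 74, where 0.998% of genes were called higher.

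The members named here in alveolar macrophages were chosen after their values were seen. Ndufb5, a membrane arm subunit of complex I, stood at 162, 173 and 191 in WT_1, p21Het_1 and p21mTert_1 and at 95.3 to 127 in the later libraries (log2 difference 0.69, SE 0.13). Ndufc2 stood at 126 to 137 and 79.3 to 97.2 (0.51, SE 0.10), and Ndufa4 at 381 to 397 and 217 to 306 (0.46, SE 0.10). Cox4i1 stood at 1056 to 1100 and 599 to 821 (0.52, SE 0.14). None of these ranges overlapped. In complex III, Uqcrh stood at 405 to 460.5 and 240.4 to 335 (0.43, SE 0.12). In complex V, Atp5l, a membrane subunit, stood at 608 to 623 and 422 to 481 (0.32, SE 0.08). Other members did not show it: Atp5b, the catalytic beta subunit, stood at 367 to 385 and 338 to 415, and Ndufa3 at 177 to 188 and 151 to 198. The median log2 difference was 0.29 in complex I (34 of 37 positive), 0.26 in complex III (8 of 8), 0.37 in complex IV (11 of 13) and 0.25 in complex V (15 of 16).

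**Figure D4:**
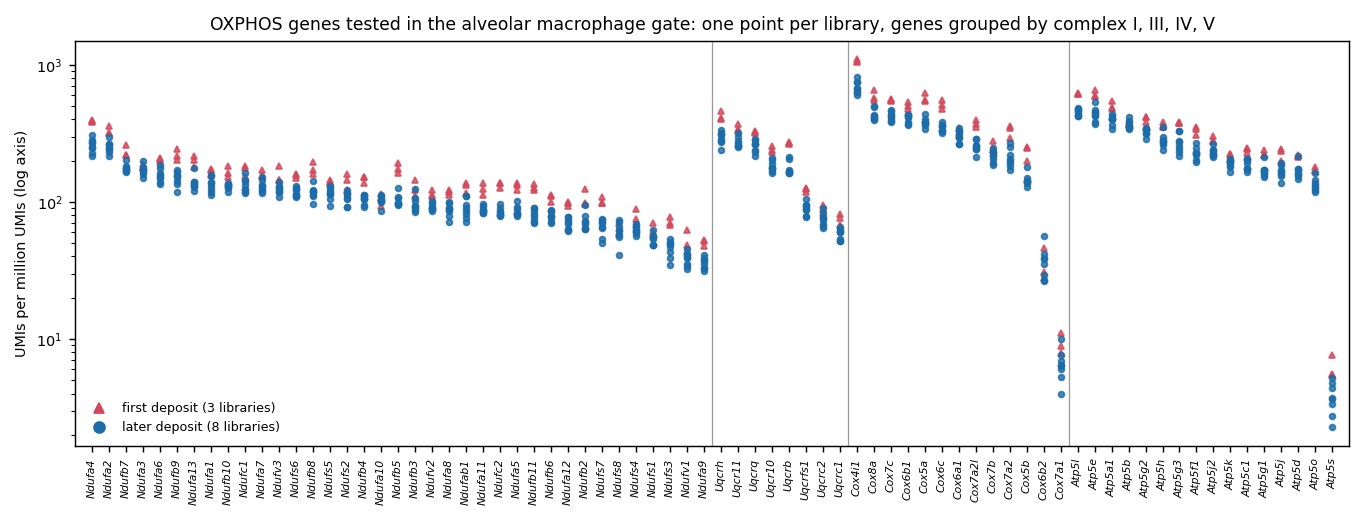
Level of each tested OXPHOS gene in alveolar macrophages (vertical axis, UMIs per 1000000 UMIs, log axis), 1 point per library, with genes on the horizontal axis grouped by complex I, III, IV and V. Triangles are the 3 first libraries and circles the 8 later ones, and in 56 of 74 genes every triangle lies above every circle.

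Other measures moved with the deposit in the same gate. Median UMIs per barcode were 12478 to 15885 in the first libraries and 16759 to 22664.5 in the later ones. Cytosolic ribosomal protein genes took 10.0% to 10.8% of UMIs against 6.97% to 8.90%, with a median log2 difference of 0.26, 80 of 86 positive and 1 called higher. Mitochondrially encoded genes took 4.52% to 5.26% against 3.75% to 4.73%, and their median was 0.04 with 8 of 13 positive. The part of depth and of the ribosomal share in the OXPHOS difference was not tested. Of the lists of other respiratory genes, the 4 complex II genes had a median of 0.12, the complex I and complex IV assembly factors 0.05 each, the tricarboxylic acid cycle genes 0.08 and the glycolysis genes -0.01, with 0 called in each. Cycs, the electron carrier cytochrome c, had a log2 difference of 0.48 and was not called. The lists were not tested against the members. A test of whether the deposit difference in alveolar macrophages exceeded that in B, T, AT2 or endothelial cells called 0 genes of any kind (edgeR), with median member differences of 0.50, 0.41, 0.17 and 0.35.

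The other gates differed in direction. Over all kept barcodes 0 members were called (0.0171% of genes) and 6 had an unadjusted p under 0.05. The member median was -0.02 with 36 of 78 positive, and that of all genes -0.03. Scaled by library totals alone these medians were 0.13, with 68 of 78 positive, and 0.12. Of the 78 members, 16 (20.5%) lay wholly above in the first deposit, against 12.6% of genes, and 4 (5.13%) wholly below, against 2.18% of genes. DESeq2 called 1, Cox8b (2.5% of genes lower), at 0.31 to 0.50 in the 3 first libraries and 0.69 to 2.47 in the 8 later ones (log2 difference -2.03, SE 0.55, adjusted p = 0.17, edgeR). A list of 7 striated muscle genes, chosen after this was seen, summed to 15.04 to 25.5 in the first and 19.9 to 70.8 in the later libraries, with overlap. A list of 5 fat genes summed to 22.6 to 24.7 and 12.98 to 26.8. In fibroblasts, where Cox8b was highest, it stood at 12.9 to 19.1 in the first and 10.3 to 41.96 in the later libraries. The part of muscle RNA in the result was not tested.

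AT2 cells differed in the same direction as alveolar macrophages, with a median log2 difference of 0.11 over the members and 0.01 over all genes. There 63 of 76 members were positive, and scaled by library totals alone the medians were 0.21, with 72 of 76 positive, and 0.11. Of the 76 members, 14 lay wholly above in the first deposit (18.4% against 6.95% of genes) with 0 wholly below. By edgeR 0 were called (0.149% of genes) with 7 at an unadjusted p under 0.05, and DESeq2 called 0. In T cells the member median was -0.11 with 19 of 75 positive, and -0.04 with 31 of 75 positive when scaled by library totals alone, where the median of all genes was 0.07. Of these members 1 lay wholly above (7.52% of genes) and 5 wholly below (3.98% of genes). By edgeR 0 were called (0.759% of genes) with 8 at an unadjusted p under 0.05. DESeq2 called 2 as lower there (1.7% of genes). Without p21mTertCD_1 edgeR called 4 as lower (2.07% of genes), and without p21mTertCD_2 also 4 (2.0% of genes).

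In endothelial cells 2 of 73 members were lower in the first deposit, where 3.29% of genes were called and 1.94% were lower. These were Ndufa1 (log2 difference -0.44, SE 0.08, adjusted p = 0.023, edgeR) and Ndufa3 (-0.35, SE 0.09, adjusted p = 0.048, edgeR), both accessory subunits of complex I. DESeq2 called Ndufa1 and Atp5k, a subunit of complex V, as lower (2.07% of genes lower) but not Ndufa3. Of the 73 members, 16 (21.9%) lay wholly above in the first deposit, against 13.9% of genes, and 2 (2.74%) wholly below, against 1.72% of genes. Ndufa1 stood at 95.6, 99.6 and 119 in p21Het_1, p21mTert_1 and WT_1 and at 102 to 128 later, so WT_1 lay inside the later range. Ndufa3 stood at 103 to 124 and 124 to 155. In B cells 3 of 74 were lower (3.26% of genes called, 1.62% lower): Ndufa1 at 95.1 to 105 against 119 to 154 (-0.51, SE 0.10, adjusted p = 0.027, edgeR), Ndufa3 at 131 to 135 against 156 to 189 (-0.53, SE 0.11, adjusted p = 0.031, edgeR) and Ndufs8, an iron-sulphur subunit, at 66.3 to 77.1 against 74.8 to 95.1 (-0.38, SE 0.09, adjusted p = 0.048, edgeR). DESeq2 called 8 as lower in B cells (3.24% of genes lower), 2 members lay wholly above (10.6% of genes) and 6 wholly below (2.64% of genes). Scaled by library totals alone, 0 members were called in either gate, where 0.388% of genes were called lower in endothelial and 0.392% in B cells, and with that scaling the median log2 difference of all genes rose to 0.20 in endothelial and 0.13 in B cells from about 0 (0.01 and -0.01). The member median in endothelial cells went from -0.05 with 24 of 73 positive to 0.15 with 61 of 73 positive. In B cells it went from -0.18 with 7 of 74 positive to -0.04 with 30 of 74 positive. Leaving out p21Het_2 also left 0 called in each gate, as did leaving out p21mTert_2 in B cells, where at most 1.14% of genes were called in endothelial and 1.62% in B cells. Without p21Het_1 or p21mTert_1 the first deposit held only 1 fitted library, so calls of those refits are not read here. In endothelial cells 1 member was called without p21mTert_2, p21mTert_3, p21mTert_5, p21Het_3, p21mTertCD_1 or p21mTertCD_2 (0.942% to 2.2% of genes lower), and in B cells 1 without p21mTert_4 (1.06% of genes lower). In the fit before these changes of setting, 5 of 13 mitochondrially encoded genes were called higher in B cells, among them mt-Nd1 (0.46) and mt-Atp6 (0.48). There 192 of 11728 genes were called higher. The log2 difference of mt-Atp8 went the other way (-0.77) and was not called.

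**Figure D5:**
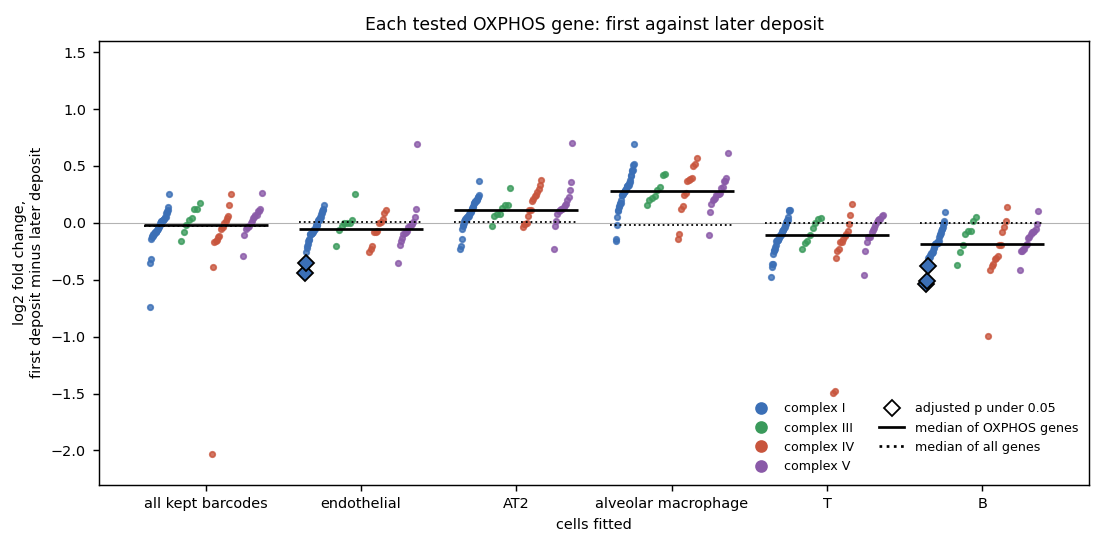
Log2 fold change of each tested OXPHOS gene between the first and the later deposit (vertical axis) by cells fitted (horizontal axis), coloured by complex. Solid lines are medians of the OXPHOS genes, dotted lines medians of all genes, and diamonds mark an adjusted p under 0.05. The member median is 0.28 in alveolar macrophages and -0.18 in B cells.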

How the data were processed

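Whole-lung single cells of 11 libraries were analysed. The deposited matrices hold UMI counts per gene and barcode, which the authors made with Cell Ranger against mm10, per the submitters' processing notes. The counts carry none of the cell filters that the labels' protocols describe. The same limits, 1000 to 30000 UMIs and at most 14% mitochondrially encoded UMIs, were applied here. No doublet caller was run. The marker lead drops barcodes whose next lineage trails by fewer than 2 markers, so barcodes with some markers of another lineage can stay. A gate of at least 4 markers that allowed none of another lineage left 0 to 2 barcodes per library. No pair of libraries shared more than 20 kept barcodes.

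Counts were summed per library, over all kept barcodes or per gate, and fitted in R 4.3.3 with edgeR 4.0.16 (filterByExpr, TMM, quasi-likelihood test, terms for group and deposit) over the 10 replicated libraries. WT has 1 library and is given as a value. P-values were Benjamini-Hochberg adjusted over all genes of a fit and called under 0.05. Lineages were fitted with the library as a block, on sums of at least 20 barcodes. DESeq2 1.42.0 was an alternative. On simulated data over all kept barcodes, with 17250 genes fitted and changes of 2-fold, the fit recovered 172 of 196 changed genes in p21mTert against p21Het, 159 of 196 against p21mTertCD and 173 of 200 between deposits, with 14, 11 and 10 false calls. Every simulated gene had the same dispersion. Smaller changes, and genotype or deposit fits within gates, were not simulated, so the recovery does not cover them.

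The rule for named genes took the members with tissue isoforms, the called members or else the 3 with the smallest p, the highest and lowest member of each complex, and the 6 with the widest range over lineages. Others are marked as chosen after their values were seen. The members and lists were chosen with earlier results of these data known. Strand use in counting is not given in the sources used here.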

Additional observations from a re-analysis of the deposited data

Results flagged for a closer look

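Cox4i2 over all kept barcodes stood at 3.15 UMIs per 1000000 in p21mTert_4, far from the other 4 p21mTert libraries at 1.66 to 2.04. Cox6b2 stood at 15.6 in the same library, against 10.9 to 11.98 in the other 4. Of the p21mTert libraries, p21mTert_4 also had the most barcodes in the fibroblast gate (268), where Cox6b2 was highest, and in the mural gate (31), where Cox4i2 was highest, but p21mTert_2, at the lower level of Cox4i2, had 30 mural barcodes. The part of these barcode numbers was not tested. In 38 groups examined this way, chance alone marks about 1 in 20.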

How the results depend on the processing

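Of 444 recomputed counts of called members, 415 stayed within 1.5 times of the reported count and 29 moved. Nearly all came from the genotype and deposit comparisons, where edgeR called 0 members except between deposits in endothelial and B cells. The counts of most lineages, of which 8 turned with library totals alone, were not among them. Of the log2 differences of named members, 289 kept direction and side of the threshold, 39 fell below it, 2 rose past it and 0 reversed. Of the summed levels, 52 moved by less than the SD between libraries and 5 by more: per UMIs of genes other than the mitochondrially encoded ones, ciliated cells stood at 21300.5, pDC at 19110.0 and B cells at 13377, over all deposited barcodes ciliated cells stood at 17463, and with the gate of 4 markers erythroid barcodes stood at 1007. With DESeq2, 1 member was called in p21mTert against p21mTertCD over all kept barcodes and 1 in T cells of p21mTertCD against p21Het. Between deposits DESeq2 called 1 over all kept barcodes, 14 in alveolar macrophages, 2 in T cells and 8 in B cells. With library totals alone, 0 were called between deposits in endothelial and 0 in B cells. With no filter on low counts, 5 were called higher between deposits in alveolar macrophages (0.315% of genes higher), and with a gate of 4 markers and a lead of 4, chosen after seeing the data, 1 lower in endothelial cells (1.85% of genes lower). The cause was not tested. Leaving out 1 library at a time gave 0 to 2 called between deposits in endothelial cells (at most 3.84% of genes called), 0 to 3 in B cells (4.34%), 0 to 12 in alveolar macrophages (2.07%) and 0 to 4 in T cells (3.89%). In T cells it gave 0 to 32 in p21mTert against p21mTertCD (at most 12.2% of genes) and 0 to 32 in p21mTertCD against p21Het (11.6%), where 32 came without p21mTertCD_2. With a replicate block in place of the deposit term, 0 members were called in the 18 genotype comparisons. Same-numbered libraries had correlations of -0.44 to 0.25 over 7 pairs. These used deviations from the group mean, which are opposite by construction in the 2 p21mTertCD libraries. They cannot show whether the numbers mark pairs. A stricter gate planned earlier left too few barcodes to give a value. Low counts limit Cox7a1, Cox8b and the lineages with few barcodes, such as pDC, mural cells, conventional dendritic cells, AT1 cells and basophils and mast cells.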
